A study of Mus musculus with 4 samples.

Results

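A set of 10 receptor and adaptor genes best known from natural killer (NK) cells was followed in CD8 T cells isolated from mouse tumours. They were chosen by symbol as Klrc1, Klrc2, Klrd1, Klrk1, Klre1, Klrg1, Klrb1c, Klra4, Klra7 and Fcer1g, and all 10 were found among the 45773 genes of the joined tables. Levels are transcript abundances normalised for length and library (TPM). All 10 averaged 1 TPM or more over the libraries, as did 12570 genes in all, which are called measured below. Gene expression was profiled by SMART-seq, which amplifies full-length cDNA from little RNA, in 4 libraries with 1 library per group.

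For the gain of Klf4, CD8 T cells of Pmel-I mice, whose transgenic T cell receptor recognises gp100 of melanocytes, were transduced with Klf4 or with the retroviral vector MigRI alone. Both were given on day 7 to Rag2 KO mice, which have no T or B cells of their own, bearing MC38 colon carcinoma that expresses gp100, and GFP-positive CD8 T cells were isolated from the tumour on day 15. For the loss of Klf4, CD8 T cells positive for PD1 were taken on day 14 from MC38 tumours of mice labelled Klf4 cKO and of control (WT) mice. The driver of the deletion, the deleted part of Klf4, the age of the animals and the number pooled are not stated in the labels. Each sample held 10000 to 20000 cells.

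Lectin-like receptors of the Klr families are encoded side by side in the NK gene complex. They bind MHC class I relatives or stress-induced ligands, and signal either through inhibitory motifs in their own tails or through small adaptor proteins that carry activating motifs. CD8 T cells acquire some of them after strong or repeated stimulation, and in tumours the CD94 and NKG2A pair is known as an inhibitory receptor of such cells.

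Klf4 itself was at 26.0 TPM in the Klf4-transduced library, against 8.69 TPM in the MigRI library. It was at 9.28 TPM in the library labelled Klf4 cKO, against 7.52 TPM in the control library, so its level does not check that label. That library is called the cKO-labelled library below. Differences were taken on the log2(TPM + 1) scale, where changes of low genes come out too small. The median measured gene was higher by 0.79 log2 in the Klf4-transduced library than in MigRI and by 0.74 log2 in the cKO-labelled library than in control. A relative log2 difference, from which this median is subtracted, is therefore given beside the TPM. A relative difference of at least 1 log2, or 2-fold, was called. Klf4 itself was not called in either comparison. Its relative log2 difference was 0.69 in the Klf4-transduced library, 1.48 as deposited, and -0.47 in the cKO-labelled library, 0.27 as deposited. With 1 library per group no test and no p-value can be given, TPM keep no read depth, and every direction describes 1 library against another.

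CD8 T cell markers were present in all 4 libraries. Cd8a, a chain of the CD8 coreceptor, was at 43.9 TPM in the Klf4-transduced library, against 168 TPM in MigRI, and at 518 TPM in the cKO-labelled library, against 136 TPM in control. Trac, the constant region of the T cell receptor alpha chain, was at 274 TPM in the Klf4-transduced library, against 1295 TPM in MigRI, and at 2164 TPM in the cKO-labelled library, against 556 TPM in control. Of 10 CD8 T cell markers, 9 were at least 2-fold lower and 0 higher with Klf4, and 5 were higher and 1 lower in the cKO-labelled library, relative to the median gene. The lower one there was Cd3d, a chain of the CD3 complex, at 1936 TPM in the cKO-labelled library, against 2579.5 TPM in control, a relative log2 difference of -1.15. With Klf4, 23.6% of all measured genes were at least 2-fold lower and 21.4% higher. In the cKO-labelled library 12.4% were higher and 16.2% lower. In bulk samples, fewer cells of a type and less RNA per cell cannot be told apart. As deposited, the median difference of Trac, Trbc1 and Trbc2 was -2.02 log2 in the gain experiment and 1.76 log2 in the loss experiment.

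The 5 lectin-like receptors Klrc1, Klrc2, Klrd1, Klrk1 and Klre1 were lower in the Klf4-transduced library than in MigRI and higher in the cKO-labelled library than in control, on the deposited scale and against the median gene alike. Relative to the T cell receptor constant genes, given below, the direction of Klrc2 turned in both experiments and those of Klrk1 and Klre1 turned in the loss experiment. Relative to the median gene, 6 of the 10 genes were at least 2-fold lower and 1 was at least 2-fold higher with Klf4, where 23.6% and 21.4% of all measured genes were. In the cKO-labelled library 3 of 10 were at least 2-fold higher and 1 was at least 2-fold lower, where 12.4% and 16.2% of measured genes were. As deposited, 5 were lower and 1 was higher with Klf4, where 10.3% and 43.7% of measured genes were, and 8 were higher and 0 lower in the cKO-labelled library, where 38.4% and 6.92% were. The 3 genes called lower with Klf4 and higher in the cKO-labelled library were Klrc1, Klrd1 and Klrg1, a pattern that 1.83% of measured genes had. As deposited, Klrc1, Klrc2, Klrd1, Klrk1 and Klre1 had it, against 2.24% of measured genes. The 2 comparisons share no library.

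**Figure D1:**
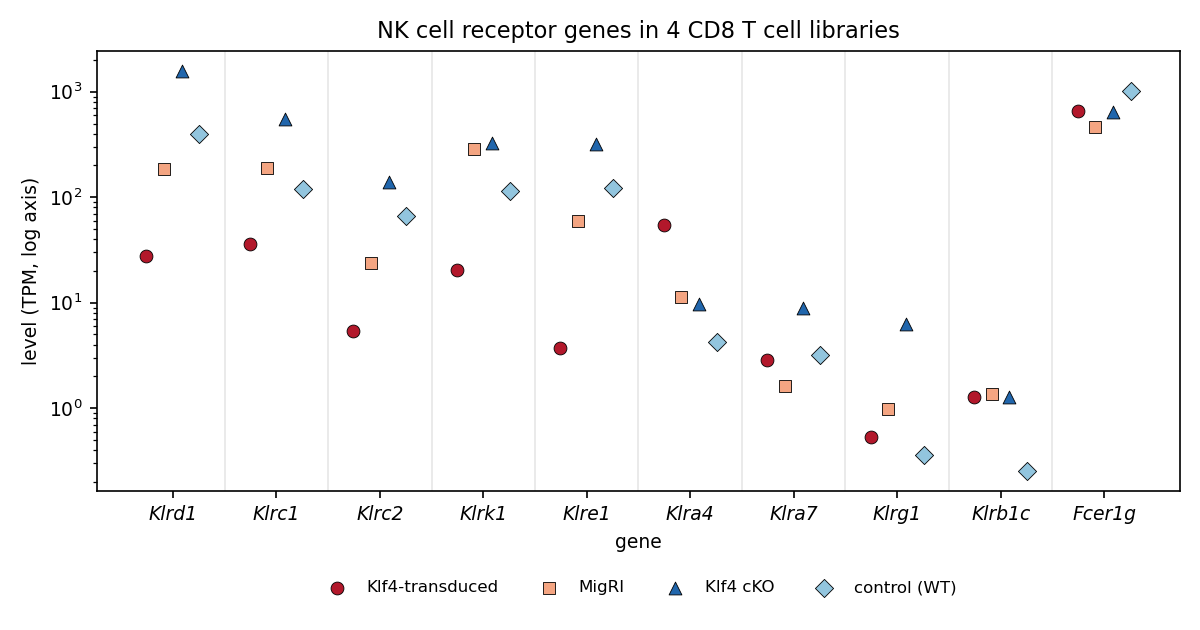
TPM of the 10 NK receptor genes (log axis) in the Klf4-transduced (circle), MigRI (square), cKO-labelled (triangle) and control (diamond) libraries, 1 point per library. For Klrd1, Klrc1, Klrc2, Klrk1 and Klre1 the Klf4-transduced point is the lowest of the 4 and the cKO-labelled point the highest, while Fcer1g lies between 464 and 1018 TPM in all 4.

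The promoters of Klrc1 and Klrk1, which were both lower with Klf4 and had positive differences in the cKO-labelled library, and of Klra4, which was higher with Klf4, are shown as the 250 bases before the start (RefSeq, build GRCm38.p6, minus strand of chromosome 6, written 5′ to 3′). Capitals mark the RUNX motif ACCACA or its complement TGTGGT. RUNX proteins are transcription factors of CD8 T and NK cells.
Klrc1, chr6:129678974-129679223: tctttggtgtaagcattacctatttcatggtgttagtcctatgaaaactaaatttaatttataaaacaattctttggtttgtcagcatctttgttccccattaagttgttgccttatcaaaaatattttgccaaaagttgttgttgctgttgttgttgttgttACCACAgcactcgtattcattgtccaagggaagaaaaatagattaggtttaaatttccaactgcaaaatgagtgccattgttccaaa
Klrk1, chr6:129623865-129624114: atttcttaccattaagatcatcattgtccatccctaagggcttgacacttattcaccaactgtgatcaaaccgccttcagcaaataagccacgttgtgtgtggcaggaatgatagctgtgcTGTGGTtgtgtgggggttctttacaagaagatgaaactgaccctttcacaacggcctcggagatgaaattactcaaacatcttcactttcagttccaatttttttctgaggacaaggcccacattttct
Klra4, chr6:130067272-130067521: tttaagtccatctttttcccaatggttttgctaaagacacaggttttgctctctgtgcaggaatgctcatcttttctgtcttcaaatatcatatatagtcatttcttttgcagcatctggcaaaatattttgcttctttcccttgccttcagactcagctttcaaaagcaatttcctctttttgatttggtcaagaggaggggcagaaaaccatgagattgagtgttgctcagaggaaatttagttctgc

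Promoter windows were found for 8 of the 10 genes, all but Klrd1 and Klrg1. Searched on both strands, the RUNX motif was in 5 of the 8 (Klrc1, Klrc2, Klrk1, Klre1 and Klrb1c), and in 14.2% of 27025 promoter windows of the same length. The KLF motif CACCC was in 3 of the 8 (Klre1, Klrb1c and Fcer1g), against 51.3% of all windows. The T-box motif GGTGTGA and the AP-1 motif TGANTCA were in 0 of the 8, against 3.31% and 6.85% of all windows. None of the matches of different motifs overlapped. The windows of Klrc2, Klre1, Klrb1c and Fcer1g lie partly or wholly inside the GENCODE gene, which can start farther upstream than in RefSeq. Such matches describe the letters of these windows and do not show binding.

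Klrd1 encodes CD94, the shared partner chain that forms dimers with NKG2 proteins (mm10 chromosome 6, 129591782 to 129598775, plus strand). It was at 27.9 TPM in the Klf4-transduced library, against 186 TPM in MigRI, and at 1582 TPM in the cKO-labelled library, against 398 TPM in control. Its relative log2 differences were -3.48 and 1.25. In the cKO-labelled library Klrd1 was the highest of the 10 genes and ranked 82 among all genes of that library.

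Klrc1 encodes NKG2A, the inhibitory partner of CD94, which binds the class Ib molecule Qa-1 and recruits the phosphatase SHP-1 (chromosome 6, 129666015 to 129678973, minus strand). It was at 36.2 TPM in the Klf4-transduced library, against 191 TPM in MigRI, and at 548 TPM in the cKO-labelled library, against 119 TPM in control, relative log2 differences of -3.16 and 1.46. Klrc2 encodes NKG2C, the activating counterpart that signals through DAP12 (chromosome 6, 129647496 to 129660689, minus strand). It was at 5.34 TPM in the Klf4-transduced library, against 23.9 TPM in MigRI, and at 140 TPM in the cKO-labelled library, against 66.1 TPM in control, relative log2 differences of -2.77 and 0.34. Klrc2 was thus called in the gain experiment alone, and whether the experiments differ was not tested.

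The split of reads between these NKG2 paralogs is uncertain. Of the stretches of 50 nucleotides in the longest Klrc1 transcript, 40.3% also occur in transcripts of other genes, 38.1% in those of Klrc2. For Klrc2 the share was 9.42%. Summed, Klrc1 and Klrc2 were at 41.6 TPM in the Klf4-transduced library, against 215 TPM in MigRI, and at 688 TPM in the cKO-labelled library, against 185 TPM in control. The summed level therefore went the same way as either gene.

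Ratios of genes within a library do not depend on how libraries are scaled. Klrc1 divided by Klrc2 was 6.78 in the Klf4-transduced library, against 7.98 in MigRI, and 3.90 in the cKO-labelled library, against 1.80 in control. The inhibitory NKG2A transcript exceeded the activating NKG2C transcript in all 4 libraries. Klrd1 divided by Klrc1 was 0.771 in the Klf4-transduced library, against 0.972 in MigRI, and 2.89 in the cKO-labelled library, against 3.35 in control. CD94 transcripts were therefore below those of NKG2A in both Pmel-I libraries and above them in both libraries of PD1-positive cells. Hosts, cells and sort differ between the experiments, so these cannot be told apart as sources of the contrast. The longest transcripts have 919 nucleotides for Klrd1 and 1984 for Klrc1, and the ratio had the same order over the libraries as the share of TPM from transcripts under 1000 nucleotides. That share was 21.7% in the Klf4-transduced library, against 38.8% in MigRI, and 41.3% in the cKO-labelled library, against 54.9% in control, and its part in the ratio was not tested.

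Klrk1 encodes NKG2D, an activating receptor for stress-induced ligands such as Rae-1, which signals through DAP10 (chromosome 6, 129610323 to 129623864, minus strand). It was at 20.4 TPM in the Klf4-transduced library, against 286 TPM in MigRI, and at 328 TPM in the cKO-labelled library, against 115 TPM in control. The relative log2 differences were -4.54 and 0.77, so Klrk1 had the lowest value of the 10 genes with Klf4 and was not called in the loss experiment. Klrk1 divided by Klrd1 was 0.729 in the Klf4-transduced library, against 1.54 in MigRI, so NKG2D was lower with Klf4 also in proportion to CD94.

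Klre1 encodes a lectin-like chain known in mouse NK cells to pair with Klri1 or Klri2 (chromosome 6, 129577905 to 129585827, plus strand). It was at 3.74 TPM in the Klf4-transduced library, against 59.9 TPM in MigRI, and at 317 TPM in the cKO-labelled library, against 122 TPM in control. Its relative log2 differences were -4.48 and 0.64. Its partner Klri2 was at 1.30 TPM in the Klf4-transduced library, against 4.42 TPM in MigRI, and at 15.03 TPM in the cKO-labelled library, against 1.60 TPM in control, relative log2 differences of -2.03 and 1.88.

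Values were also set against T cell receptor transcripts. Relative to the median of Trac, Trbc1 and Trbc2, Klrk1 and Klre1 were still lower with Klf4 by more than 2-fold, at -1.73 and -1.67 log2, where 0.804% of measured genes were at least 2-fold lower. On that scale Klrd1 was at -0.68, Klrc1 at -0.35 and Klrc2 at 0.040 log2, so the direction of Klrc2 turned. On it 5 of the 10 genes, Klrg1, Klrb1c, Klra4, Klra7 and Fcer1g, were at least 2-fold higher, where 90% of measured genes were. T cell genes differed among themselves with Klf4. As deposited, the CD3 chain genes Cd3d and Cd3g were at -4.43 and -4.23 log2, lower than Klrk1 and Klre1 at -3.75 and -3.68 log2. The CD3 chain gene Cd3e was at -1.48 log2. In the loss experiment 0 of the 10 exceeded the receptor constant genes by 2-fold, which 0.859% of measured genes did. Klrc1 was at 0.44 and Klrd1 at 0.23 log2 there, while Klrc2, Klrk1 and Klre1 turned to -0.68, -0.26 and -0.38 log2. Fcer1g, at -2.42 log2, was the 1 gene at least 2-fold lower on that scale, where 51% of measured genes were. Per transcript of Cd8a, Klrd1 was at 0.636 in the Klf4-transduced library, against 1.11 in MigRI, and at 3.05 in the cKO-labelled library, against 2.94 in control. Per transcript of Cd8a, Klrk1 was at 0.464 in the Klf4-transduced library, against 1.71 in MigRI, and at 0.634 in the cKO-labelled library, against 0.850 in control.

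**Figure D2:**
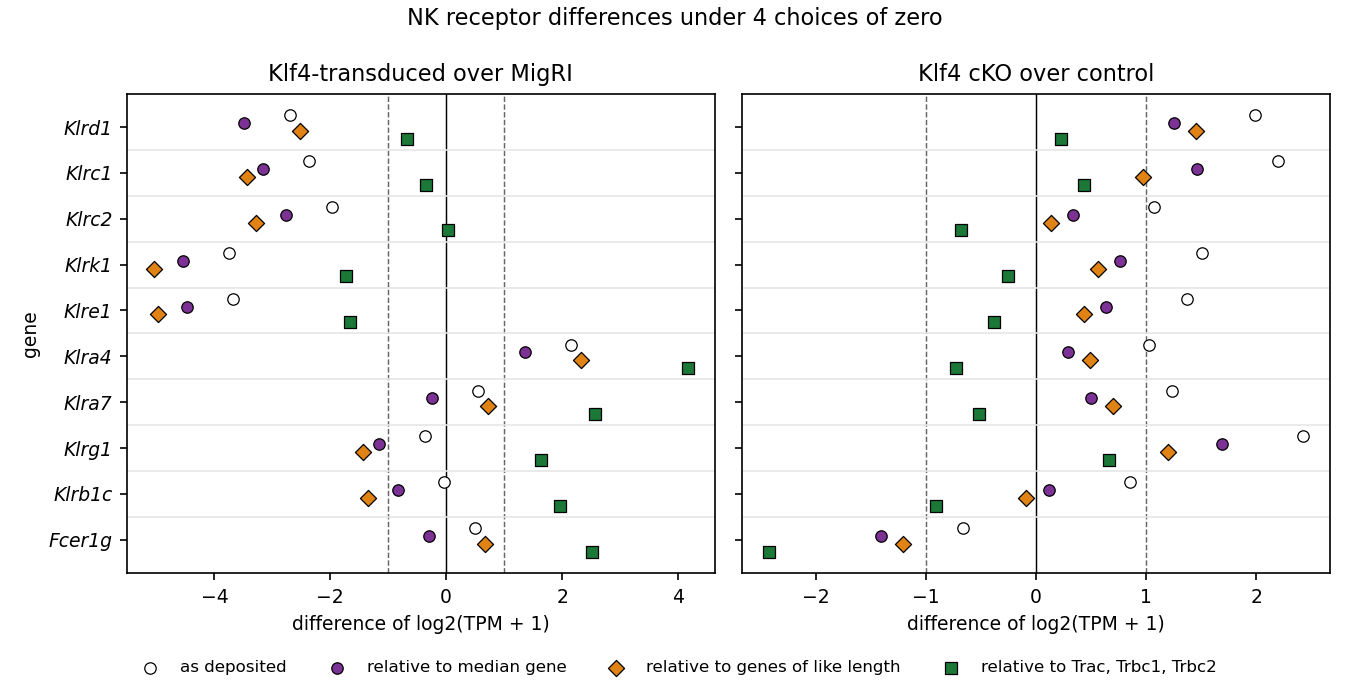
Difference of log2(TPM + 1) of the 10 genes for Klf4-transduced over MigRI (left) and cKO-labelled over control (right), as deposited (open circles), relative to the median measured gene (filled circles), to genes of like transcript length (diamonds) and to Trac, Trbc1 and Trbc2 (squares), with dashed lines at 2-fold. Klrk1 and Klre1 lie left of the 2-fold line on all 4 scales in the left panel, and no square in the right panel lies beyond the upper 2-fold line.

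The genes nearest to Klrd1 and Klrk1 in their pair of relative differences were looked up among the 2012 protein-coding genes that averaged 50 TPM or more. Nearest to Klrd1 by Euclidean distance over the 2 comparisons were Cd160, a receptor shared by NK and T cells, at 0.035 log2, Cst7, a cystatin of cytotoxic granules, at 0.061 log2, and Gimap7 at 0.214 log2. Nearest to Klrk1 were Klre1, also of the NK gene complex, at 0.146 log2, Ptprcap at 0.260 log2 and Igflr1 at 0.290 log2. Only 4 libraries stand behind these distances. General T cell markers could also lie near Klrd1, whose relative log2 differences were -3.48 and 1.25. Those of Cd2 were -3.39 and 1.03 and those of Trac -3.03 and 1.22, while Cd3d lay apart, at -5.22 and -1.15.

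**Figure D3:**
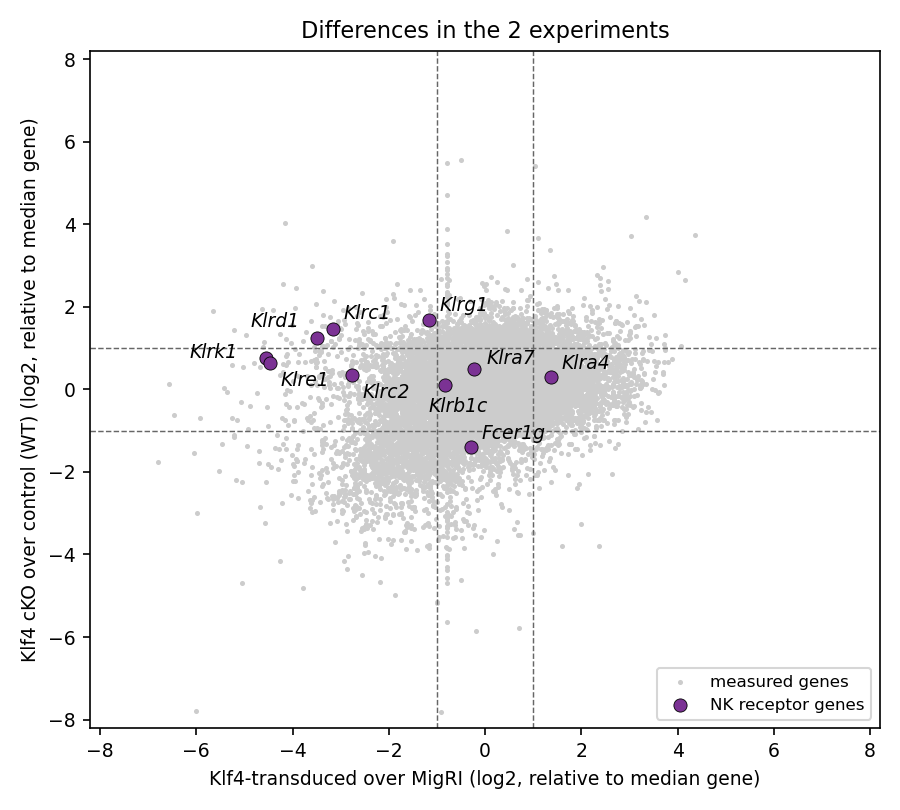
Relative log2 difference for Klf4-transduced over MigRI (horizontal) and for cKO-labelled over control (vertical) of the 12570 measured genes (grey) and the 10 NK receptor genes (purple), with dashed lines at 2-fold. Klrd1, Klrc1 and Klrg1 lie in the upper left field, Klrk1, Klre1 and Klrc2 lie left of the 2-fold line but between the horizontal lines, and Fcer1g lies below them.

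Klra4 encodes Ly49D, an activating receptor for MHC class I that uses DAP12 (chromosome 6, 130043731 to 130067271, minus strand), and it went the other way with Klf4. It was at 54.0 TPM in the Klf4-transduced library, against 11.3 TPM in MigRI, and at 9.72 TPM in the cKO-labelled library, against 4.25 TPM in control, relative log2 differences of 1.36 and 0.29. It was the only one of the 10 genes called higher with Klf4 and was second among them in that library, after Fcer1g. Per transcript of Cd8a it was at 1.23 in the Klf4-transduced library and at 0.068 in MigRI. Reads of other Ly49 genes could be counted for it, since 4.68% of its stretches of 50 nucleotides occur elsewhere, mostly in Klra1. The promoter window of Klra4 shown above holds none of the 4 motifs searched.

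Klra7 encodes Ly49G, an inhibitory relative (chromosome 6, 130218605 to 130233322, minus strand). It was at 2.86 TPM in the Klf4-transduced library, against 1.63 TPM in MigRI, and at 8.84 TPM in the cKO-labelled library, against 3.17 TPM in control, relative log2 differences of -0.24 and 0.50, neither of which was called. The direction with Klf4 turned between the relative value and the deposited one of 0.55 log2. A pseudogene, Klra13-ps, shares 14.7% of its stretches of 50 nucleotides.

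Klrg1 encodes an inhibitory receptor for cadherins that marks terminal effector T cells (chromosome 6, 122270596 to 122282882, minus strand). It was at 0.533 TPM in the Klf4-transduced library, against 0.984 TPM in MigRI, and at 6.32 TPM in the cKO-labelled library, against 0.364 TPM in control. The relative log2 differences were -1.17 and 1.69. All levels but the cKO-labelled one were below 1 TPM, and with Klf4 the difference was -0.37 log2 as deposited and turned to 1.64 log2 relative to the receptor constant genes. Klrb1c, which encodes the NK marker NK1.1 (chromosome 6, 128778485 to 128789215, minus strand), was at 1.29 TPM in the Klf4-transduced library, against 1.36 TPM in MigRI, and at 1.27 TPM in the cKO-labelled library, against 0.256 TPM in control. Its relative log2 differences of -0.84 and 0.12 were not called. Of its stretches of 50 nucleotides, 18.1% are shared with other genes, and the annotated gene Gm44511 overlaps it on the same strand.

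Fcer1g encodes the gamma chain that couples Fc receptors and some NK receptors to activating signals in NK cells, macrophages and mast cells (chromosome 1, 171229572 to 171234365, minus strand). It was at 657 TPM in the Klf4-transduced library, against 464 TPM in MigRI, and at 641 TPM in the cKO-labelled library, against 1018 TPM in control, relative log2 differences of -0.29 and -1.40. It was the one gene of the 10 called lower in the cKO-labelled library, and its direction there was the same as deposited, at -0.67 log2. It took 81.2% of the summed TPM of the 10 genes in the Klf4-transduced library, against 37.8% in MigRI, and 17.9% in the cKO-labelled library, against 55.1% in control. With Klf4 its direction turned with the scale, from -0.29 log2 relative to the median gene to 0.50 log2 as deposited.

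The other adaptors of these receptors were read beside it. Tyrobp, which encodes DAP12, was at 290 TPM in the Klf4-transduced library, against 174 TPM in MigRI, and at 210 TPM in the cKO-labelled library, against 433 TPM in control, relative log2 differences of -0.06 and -1.78. Hcst, which encodes DAP10, was at 12.0 TPM in the Klf4-transduced library, against 170 TPM in MigRI, and at 762 TPM in the cKO-labelled library, against 1609 TPM in control, relative log2 differences of -4.51 and -1.81. Hcst thus went with Klrk1 in the gain experiment, where Klrk1 divided by Hcst was 1.69 in both libraries. In the loss experiment they parted, with 0.431 in the cKO-labelled library against 0.072 in control. Fcer1g divided by Tyrobp stayed between 2.27 and 3.06 in the 4 libraries.

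All 3 adaptors have short transcripts, of 683 nucleotides for Fcer1g, 597 for Tyrobp and 442 for Hcst. The share of all TPM from transcripts of such lengths differed between the libraries, as given above. When the measured genes were put in 5 classes of transcript length of like size and each gene was set against the median of its class, Fcer1g was at 0.67 log2 with Klf4 and -1.20 log2 in the loss experiment. Tyrobp was at -1.58 and Hcst at -1.61 log2 in the loss experiment on that scale, so all 3 were lower in the cKO-labelled library there too. With Klf4, Tyrobp was at 0.90 and Hcst at -3.54 log2 on it. The class of these 3 genes ran from 12 to 1280 nucleotides, so differences of length within it were not adjusted for. Klrd1, with 919 nucleotides, was at -2.52 and 1.45 log2, and Klrk1, with 3259 nucleotides, at -5.05 and 0.56 log2. Hcst and Klrk1 thus lay apart with Klf4 when each was set against its length class.

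Of 17 measured adaptors and proximal signalling genes, 8 were at least 2-fold lower and 1 higher with Klf4 relative to the median gene, where 23.6% and 21.4% of measured genes were, with a list median of -0.99 log2. In the loss experiment 4 were lower and 1 higher, where 16.2% and 12.4% of measured genes were, with a median of 0.08 log2. These shares of all measured genes stand behind the counts of each list that follows. Sh2d1a, which encodes the adaptor SAP, was at 17.4 TPM in the Klf4-transduced library, against 194 TPM in MigRI, and at 184 TPM in the cKO-labelled library, against 71.1 TPM in control. Lat, a scaffold of T cell receptor signalling, was at 70.9 TPM in the Klf4-transduced library, against 466 TPM in MigRI, and at 321 TPM in the cKO-labelled library, against 121 TPM in control.

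Of 27 other lectin-like genes of the NK gene complex in the tables, 13 were measured. Relative to the median gene, 4 were at least 2-fold lower and 4 higher with Klf4, where 23.6% and 21.4% of measured genes were. In the cKO-labelled library 4 were higher and 1 lower, where 12.4% and 16.2% of measured genes were. The list medians were -0.56 and 0.73 log2. Klra5, an inhibitory Ly49 receptor gene, was lower in both comparisons, at 5.39 TPM in the Klf4-transduced library, against 43.7 TPM in MigRI, and at 17.6 TPM in the cKO-labelled library, against 39.8 TPM in control. Clec7a and Clec12a, lectin receptors of myeloid cells, were at 36.0 and 23.7 TPM in the Klf4-transduced library, against 4.46 and 5.45 TPM in MigRI. In the loss experiment Clec7a was at 4.92 and Clec12a at 10.6 TPM in the cKO-labelled library, against 1.13 and 2.71 TPM in control.

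Among 15 measured receptors of other families that NK and CD8 T cells share, 6 were at least 2-fold lower and 5 higher with Klf4, and 8 were higher and 0 lower in the cKO-labelled library, with medians of -0.68 and 1.05 log2. Cd226, an activating receptor for nectin and nectin-like proteins, was at 1.34 TPM in the Klf4-transduced library, against 19.1 TPM in MigRI, and at 33.8 TPM in the cKO-labelled library, against 12.1 TPM in control. Tigit, its inhibitory competitor, was at 2.65 TPM in the Klf4-transduced library, against 23.1 TPM in MigRI, and at 71.6 TPM in the cKO-labelled library, against 9.41 TPM in control. Cd160 and Cd96 had relative log2 differences of -3.49 and -2.56 with Klf4 and of 1.22 and 1.11 in the cKO-labelled library. These 4 receptors had the signs of Klrd1 and Klrc1 in both experiments, as did Trac, at -3.03 and 1.22 log2. As deposited, Cd96 fell less with Klf4 than the receptor constant genes, at -1.77 against -2.02 log2. Cd226 rose less than they did in the loss experiment, at 1.41 against 1.76 log2. Cd160 and Tigit changed by more than the median of these genes in both. Cd160 was level with Trac in the loss experiment, at 1.95 against 1.96 log2. The 5 higher with Klf4 were Fcgr3, Pilra, Pilrb1, Lair1 and Cd300a, with Fcgr3 at 590 TPM, against 116 TPM in MigRI.

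Among ligand genes, those of class I molecules were at high levels and those of NKG2D and KLRG1 at low levels. H2-T23, which encodes the Qa-1 heavy chain bound by the CD94 dimers, was at 285 TPM in the Klf4-transduced library, against 173 TPM in MigRI, and at 623 TPM in the cKO-labelled library, against 80.6 TPM in control. Its relative log2 differences were -0.08 and 2.20, so transcripts of Qa-1 and of its receptor chains CD94 and NKG2A were higher in the cKO-labelled library. Of 8 measured ligand genes, 2 were higher and 1 lower with Klf4, and 4 were higher and 0 lower in the cKO-labelled library, with medians of 0.22 and 0.75 log2. The other 3 higher ones there were the class I genes H2-K1 and H2-D1 and the light chain gene B2m, with relative log2 differences of 1.47, 1.38 and 1.07. Raet1d, a ligand gene of NKG2D, was at 23.4 TPM in the Klf4-transduced library, against 6.03 TPM in MigRI, and at 2.92 TPM in the cKO-labelled library, against 0.748 TPM in control. Raet1e was at 8.71 TPM or less, Ulbp1 at 2.33 TPM or less and H60b at 0.570 TPM or less in the 4 libraries, and H60c was listed at 0 in all of them. The cadherin genes Cdh1 and Cdh2, whose products KLRG1 binds, were at 0.781 and 2.34 TPM or less.

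Of 17 transcription factors and interleukin receptor chains of the NK-like programme, 9 were at least 2-fold lower and 2 higher with Klf4, where 23.6% and 21.4% of measured genes were, with a median of -1.13 log2. In the cKO-labelled library 3 were higher and 1 lower, where 12.4% and 16.2% of measured genes were, with a median of 0.02 log2. Il2rb, the receptor chain shared by interleukins 2 and 15, was at 30.9 TPM in the Klf4-transduced library, against 71.9 TPM in MigRI, and at 161 TPM in the cKO-labelled library, against 69.5 TPM in control. Nfil3, a transcription factor required for NK cell development, was higher in both comparisons, at 80.3 TPM in the Klf4-transduced library, against 7.40 TPM in MigRI, and at 53.7 TPM in the cKO-labelled library, against 6.20 TPM in control. Its relative log2 differences were 2.48 and 2.19. The 10 proliferation genes had medians of 0.03 and 0.70 log2, with 3 lower and 0 higher with Klf4 and 3 higher and 0 lower in the cKO-labelled library.

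Markers of NK cells ranged widely in level. Ncr1, which encodes NKp46, was at 2.40 TPM in the Klf4-transduced library, against 1.50 TPM in MigRI, and at 1.68 TPM in the cKO-labelled library, and was listed at 0 in control. Klra8, the Ly49H gene, was listed at 0 in all libraries but the cKO-labelled one, where it was at 0.602 TPM. Itga2, which encodes CD49b, was at 0.236 TPM or less, and Khdc1a was listed at 0 in all 4. Styk1 was at 0.485 TPM in the Klf4-transduced library, against 0.496 TPM in MigRI, and at 10.5 TPM in the cKO-labelled library, against 9.01 TPM in control. Gzma, a granzyme gene that cytotoxic T cells also express, was at 35.1 TPM in the Klf4-transduced library, against 78.1 TPM in MigRI, and at 467 TPM in the cKO-labelled library, against 196 TPM in control. Klri2, given above, is also on this list. Of 17 NK and innate lymphoid markers, 12 were measured, with 6 at least 2-fold lower and 0 higher with Klf4 and 1 higher and 3 lower in the cKO-labelled library. Their sum of 1630 TPM in the Klf4-transduced library against 2387 TPM in MigRI, and of 2584 TPM in the cKO-labelled library against 2922 TPM in control, came mainly from Xcl1 and Fcer1g, which CD8 T cells also express or which are among the 10 genes. Zbtb16, the defining factor of natural killer T cells, was listed at 0 in all 4 libraries. The 10 natural killer T and gamma delta T cell markers in the tables summed to 15.6 TPM in the Klf4-transduced library, against 53.9 TPM in MigRI, and to 147 TPM in the cKO-labelled library, against 17.9 TPM in control. Their highest member was Tcrg-C2, at 123 TPM in the cKO-labelled library, against 11.6 TPM in control.

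Markers of myeloid and stromal cells moved with both comparisons. Of 17 macrophage and monocyte markers, 13 were at least 2-fold higher and 0 lower with Klf4, and 8 were higher and 1 lower in the cKO-labelled library. Their summed level was 8007 TPM in the Klf4-transduced library, against 1925 TPM in MigRI, and 2239 TPM in the cKO-labelled library, against 812 TPM in control. Of 7 measured fibroblast and endothelium markers, 6 were higher and 1 lower with Klf4 and 2 were higher and 0 lower in the cKO-labelled library, with sums of 1278 TPM in the Klf4-transduced library against 135 TPM in MigRI, and of 246 TPM in the cKO-labelled library against 30.2 TPM in control. Mast cell, basophil and neutrophil markers summed to 160 TPM in the Klf4-transduced library, against 30.7 TPM in MigRI, and to 68.5 TPM in the cKO-labelled library, against 30.8 TPM in control. Of the 7 measured, 5 were higher and 0 lower with Klf4, and 4 were higher and 2 lower in the cKO-labelled library. The mast cell proteases were higher in both comparisons, with Tpsb2 at 34.7 TPM in the Klf4-transduced library and listed at 0 in MigRI, and at 21.1 TPM in the cKO-labelled library and listed at 0 in control. Cma1 was at 26.9 TPM in the Klf4-transduced library, against 0.957 TPM in MigRI, and at 20.9 TPM in the cKO-labelled library and listed at 0 in control. Mcpt4 was at 8.13 and Cpa3 at 3.99 TPM in the Klf4-transduced library, against 0 and 0.060 TPM in MigRI, and they were at 9.78 and 10.2 TPM in the cKO-labelled library and both listed at 0 in control. Fcer1a was at 1.31 TPM or less and Ms4a2 was listed at 0 in all 4, both being chains of the mast cell Fc receptor. The 2 lower in the cKO-labelled library were the neutrophil genes S100a8 and S100a9, at 2.44 and 0.732 TPM there, against 18.1 and 10.9 TPM in control. Fcer1g, the member shared with these cells, was lower in the cKO-labelled library while the macrophage sum and the mast cell proteases were higher there. The 1 macrophage marker called lower there was Aif1, at 110 TPM, against 208 TPM in control. It was at 114 TPM in the Klf4-transduced library, against 80.1 TPM in MigRI. The relative log2 differences of Aif1 were -0.29 and -1.66, beside -0.29 and -1.40 for Fcer1g. For Fcer1g, Klra4 and the ligand genes, the part of myeloid and stromal cells in the result was not tested.

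**Figure D4:**
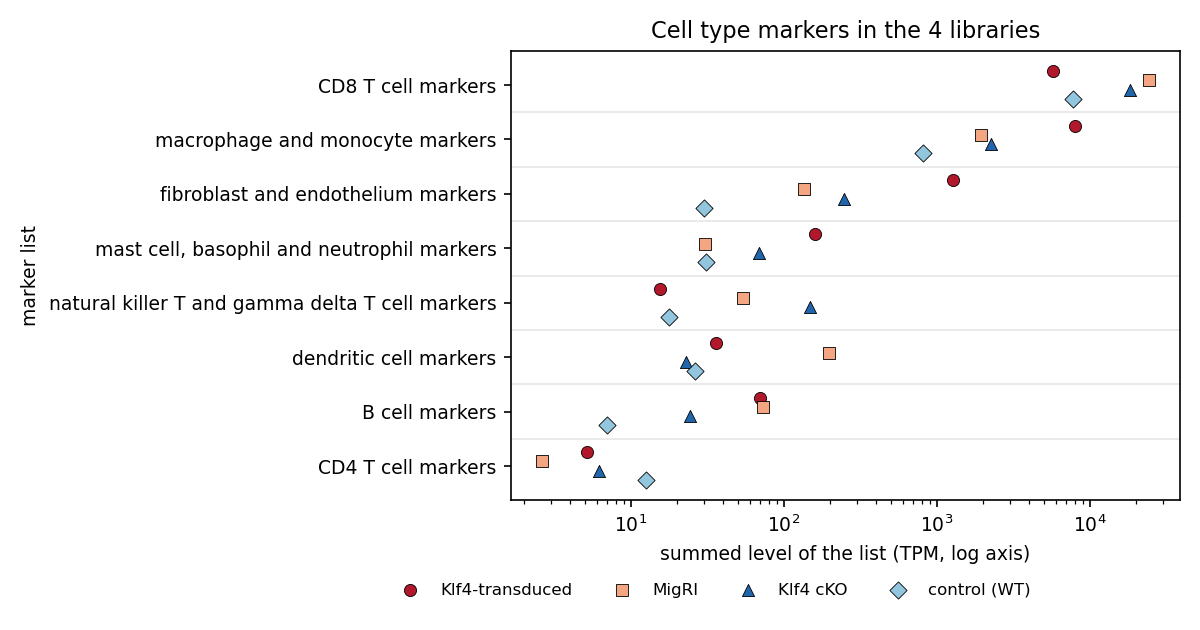
Summed TPM (log axis) of 8 lists of cell type markers in the Klf4-transduced (circle), MigRI (square), cKO-labelled (triangle) and control (diamond) libraries, 1 point per library. CD8 T cell markers summed to 5752 TPM in the Klf4-transduced library against 24367 TPM in MigRI and to 18257 TPM in the cKO-labelled library against 7771 TPM in control, while the macrophage and fibroblast sums were highest in the Klf4-transduced library.

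Other lists for admixed cells summed to 198 TPM or less in each library. Dendritic cell markers summed to 35.8 TPM in the Klf4-transduced library, against 198 TPM in MigRI, and to 22.9 TPM in the cKO-labelled library, against 26.3 TPM in control, and Batf3, which activated T cells also express, gave most of the MigRI sum. B cell markers summed to 70.2 TPM in the Klf4-transduced library, against 73.5 TPM in MigRI, and to 24.4 TPM in the cKO-labelled library, against 7.02 TPM in control, with Ms4a1 listed at 0 in all 4. Ighm gave most of each of these sums. It was at 46.5 TPM in the Klf4-transduced library, against 66.7 TPM in MigRI, and at 18.1 TPM in the cKO-labelled library, against 4.76 TPM in control. CD4 T cell markers summed to 5.18 TPM in the Klf4-transduced library, against 2.62 TPM in MigRI, and to 6.20 TPM in the cKO-labelled library, against 12.5 TPM in control.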

How the data were processed

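Per the labels' protocols, RNA was extracted with TRI Reagent and amplified with a SMART-seq v4 kit. The submitters' processing notes name the build mm10 and the tools HISAT2, StringTie, edgeR and Trimmomatic; versions, roles and annotation are not stated there. The authors deposited gene-level TPM, 1 table per library with 45777 entries. Since TPM are shares of 1 total per library, abundant or short transcripts lower all other values. Of 26 date-like symbols in the control table, 22 were mapped back by name, and 4 genes were left out. The kit does not mark strand.

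Tables were joined by symbol (Python 3.11.15, pandas 2.3.3, numpy 2.4.6). A pseudocount of 1, a filter of a mean of at least 1 TPM and a threshold of 1 log2 relative to the median measured gene were used. Positions, transcript lengths and shared stretches of 50 nucleotides came from GENCODE M21 on GRCm38, the assembly mm10 names, and lengths were found for 93.5% of measured genes. The difference and call functions were tested on simulated data. All 10 genes are named, with the largest differences (up to 4 per list, at 10 TPM or more) and, for marker lists, the 2 highest members. Text gives values for some of these. Cd8a, Trac, Hcst, Tyrobp and H2-T23 were named whatever their values. Cd3d, Cd3e, Cd3g, Aif1, Ncr1, Klra8, Itga2, Khdc1a, Styk1, Gzma, Zbtb16, Ms4a1 and the mast cell, neutrophil, NKG2D ligand and cadherin genes named were picked with their values in view. Some marker genes are not reported here and were left out of their lists. Members and lists were chosen with earlier results of these data known. Alternatives were other pseudocounts, filters, scalings and reference genes.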

Additional observations from a re-analysis of the deposited data

How the results depend on the processing

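No paired analysis was possible because each group held 1 library, and no library could be left out. The number of genes at least 2-fold lower with Klf4 was 6, and 1 was higher. Relative to Trac, Trbc1 and Trbc2 these became 2 lower and 5 higher, where 0.804% and 90% of genes tested were, and relative to Cd8a and Cd8b1, a reference chosen after seeing the data, also 2 and 5, where 0.804% and 89.9% were. In the cKO-labelled library 3 genes were higher and 1 was lower. The higher count became 6 without a filter (16.6% of genes tested), 1 of 7 tested genes at a mean of at least 5 TPM (8.28%), 8 as deposited (38.4%), 0 relative to Trac, Trbc1 and Trbc2 (0.859%), and 0 relative to Cd8a and Cd8b1 (0.453%). The lower count became 0 without a filter (6.49%), as deposited (6.92%) and under quantile normalization (15%), and 4 relative to Cd8a and Cd8b1 (66.4%). Called single genes turned direction only against the T cell reference genes: with Klf4, Klrc2 to 0.040 and 0.035 log2 and Klrg1 to 1.64 and 1.64 log2 under the receptor and the CD8 references, and in the cKO-labelled library Klrd1 to -0.14 log2 relative to Cd8a and Cd8b1. Klrk1 and Klre1 were at least 2-fold lower with Klf4 under all 13 settings, at -5.05 to -1.73 and -4.98 to -1.67 log2, and Klra4 was at least 2-fold higher, at 1.14 to 4.17 log2. Against both T cell references, Klrc1 and Klrd1 lost their calls with Klf4, and Klrc1, Klrd1 and Klrg1 theirs in the cKO-labelled library. Under the other settings, calls were lost in the cKO-labelled library by Klrd1 at a pseudocount of 0.1, a mean of 5 TPM and median of ratios scaling (0.96, 0.94 and 0.95 log2), by Klrc1 against its length class (0.97 log2), by Klrg1 at a pseudocount of 5 (0.72 log2), and by Fcer1g without a filter, as deposited and under quantile normalization (-0.89, -0.67 and -0.49 log2). With Klf4, Klrg1 lost its call at a pseudocount of 5, without a filter, as deposited, and under median of ratios scaling and quantile normalization (-0.59, -0.65, -0.37, -0.80 and -0.81 log2). Other genes gained calls under these settings. In the cKO-labelled library Klrk1 was called higher at a pseudocount of 5, without a filter and as deposited (1.12, 1.27 and 1.50 log2). Without a filter and as deposited, Klre1 (1.15 and 1.37 log2) and Klra7 (1.01 and 1.24 log2) were called higher there. Klrc2 and Klra4 were called higher there only as deposited (1.07 and 1.03 log2). With Klf4, Klrb1c was called lower at a pseudocount of 0.1 and against its length class (-1.03 and -1.34 log2). Rescaling after leaving out mitochondrial, ribosomal protein and T cell receptor segment genes, or without the 50 most abundant genes, changed no call of the 10 genes. TPM keep no depth, so genes near 1 TPM, such as Klrg1 and Klrb1c, have no counting interval.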
